A study of Mus musculus with 4 samples.

Results

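Transforming growth factor beta (TGF-beta) transcripts were examined in RNA sequencing of tumor-associated macrophages (TAMs). The genes were 3 ligands (*Tgfb1*, *Tgfb2* and *Tgfb3*), 3 receptors (*Tgfbr1*, *Tgfbr2* and *Tgfbr3*), 2 latent TGF-beta binding proteins (*Ltbp1* and *Ltbp2*), the inhibitor *Smad7* and the TGF-beta-induced matrix gene *Tgfbi*. They were chosen by name, through the Ensembl identifier of each symbol, and all 10 were found among the 54532 genes of the count table. The comparison asked how transcripts differ in TAMs when the tyrosine kinase Syk is deleted in myeloid cells.

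The TAMs came from tumors of NB9464, a mouse neuroblastoma cell line in which *MYCN* is amplified. They were collected at day 40 after implantation, and no further treatment is listed for these samples. In SykMC-KO mice, Cre recombinase under the lysozyme M gene (*Lyz2*), which is active in macrophages, monocytes and neutrophils, recombines a floxed *Syk* allele, and SykMC-WT mice are their wild type controls, both on the C57BL/6 background. CD11b and F4/80 magnetic beads, to which other myeloid cells can also bind, were used for isolation, and libraries of polyA RNA were 2 labelled SykMC-WT (M7 and M8) and 2 labelled SykMC-KO (M9 and M10). The labels of these libraries also name bone marrow derived macrophages as the source of RNA. The title of the deposited data names an adoptive transfer. The cells are called TAMs after the isolation step, and their exact origin is not known. Neither the labels nor the methods say whether the libraries of a genotype came from separate mice, so p-values measure the spread between these libraries.

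*Syk*, the targeted gene, was checked first and went against the labels. It had 765 counts in M7 and 569 in M8 against 4033 in M9 and 2944 in M10, and its log2 fold change was 2.80 (edgeR adjusted p = 0.000674). Scaled to 10 macrophage markers instead, *Syk* differed by 0.07 on the log2 scale (adjusted p = 0.902). Scaled to 6 pan-leukocyte markers, *Syk* differed by -0.63 (adjusted p = 0.0757). Whether the labels are exchanged was not tested. Every direction below is that of the libraries as labelled, and an exchange would turn each of them. Total counts were between 20755886 and 23518045, at which 3 counts correspond to 0.109 to 0.163 CPM (the count of a gene scaled to a common library size with TMM factors). Mitochondrial genes took 2.20% and 2.34% of the counts in M7 and M8 against 6.00% and 15.9% in M9 and M10. All 10 markers of macrophages were detected and all were higher in the libraries labelled SykMC-KO (median log2 fold change 2.82), with summed levels of 1294, 917, 10373 and 6225 CPM in M7, M8, M9 and M10. The 6 pan-leukocyte markers were also all higher, with a median of 3.51. Of 7 pericyte and smooth muscle markers, 5 were lower and none was higher, with summed levels of 567, 596, 149 and 206 CPM. Of 8 fibroblast markers, 2 were lower and 1 was higher, with summed levels of 552, 659, 239 and 318 CPM. The 11 genes often read as TGF-beta targets, most of them expressed by fibroblasts and smooth muscle, summed to 23053, 25893, 7721 and 8413 CPM. In M7 and M8 this was far above the summed macrophage markers. Levels below are therefore those of whole libraries, and which cells made a transcript was not tested. The part of these marker differences in the results below was not tested, and in bulk RNA fewer cells of a type and less RNA per cell cannot be told apart.

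TGF-beta ligands are secreted as dimers that stay bound to their own propeptide, and this latent complex is held by a binding protein until integrins, proteases or thrombospondin release the active ligand. Active ligand binds TGFBR2, a serine/threonine kinase, which recruits and phosphorylates TGFBR1, and TGFBR1 phosphorylates SMAD2 and SMAD3, while TGFBR3 (betaglycan) presents ligand, TGF-beta2 above all. In tumors TGF-beta is known to be made by myeloid cells, fibroblasts and tumor cells, to drive matrix production and to restrain T cells.

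In the libraries labelled SykMC-KO, *Tgfb1* and *Tgfbi* were higher, and *Tgfb2*, *Tgfb3*, *Tgfbr2*, *Tgfbr3*, *Ltbp1* and *Ltbp2* were lower. *Tgfbr1* and *Smad7* did not pass the test. Thus 2 of the 10 genes were called higher, where 22.7% of all 16451 genes tested were, and 6 were called lower, where 16.7% of all genes were (edgeR quasi-likelihood test, Benjamini-Hochberg adjusted p under 0.05). Without M7, 4 of the 10 were called lower, where 7.09% of all genes tested were, and without M8, 3 were, where 4.69% of all genes were. The levels of the libraries did not overlap between genotypes for 9 of the 10 genes, against 75.2% of all genes tested. The median log2 fold change was -0.63 for the 10 genes and 0.02 for all genes tested. Scaled to the macrophage markers instead, 0 of the 10 were called higher and 9 lower, where 86.3% of all genes were lower. Scaled to the pan-leukocyte markers, 0 were called higher and 10 lower, where 91.8% of all genes were lower.

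**Figure D1:**
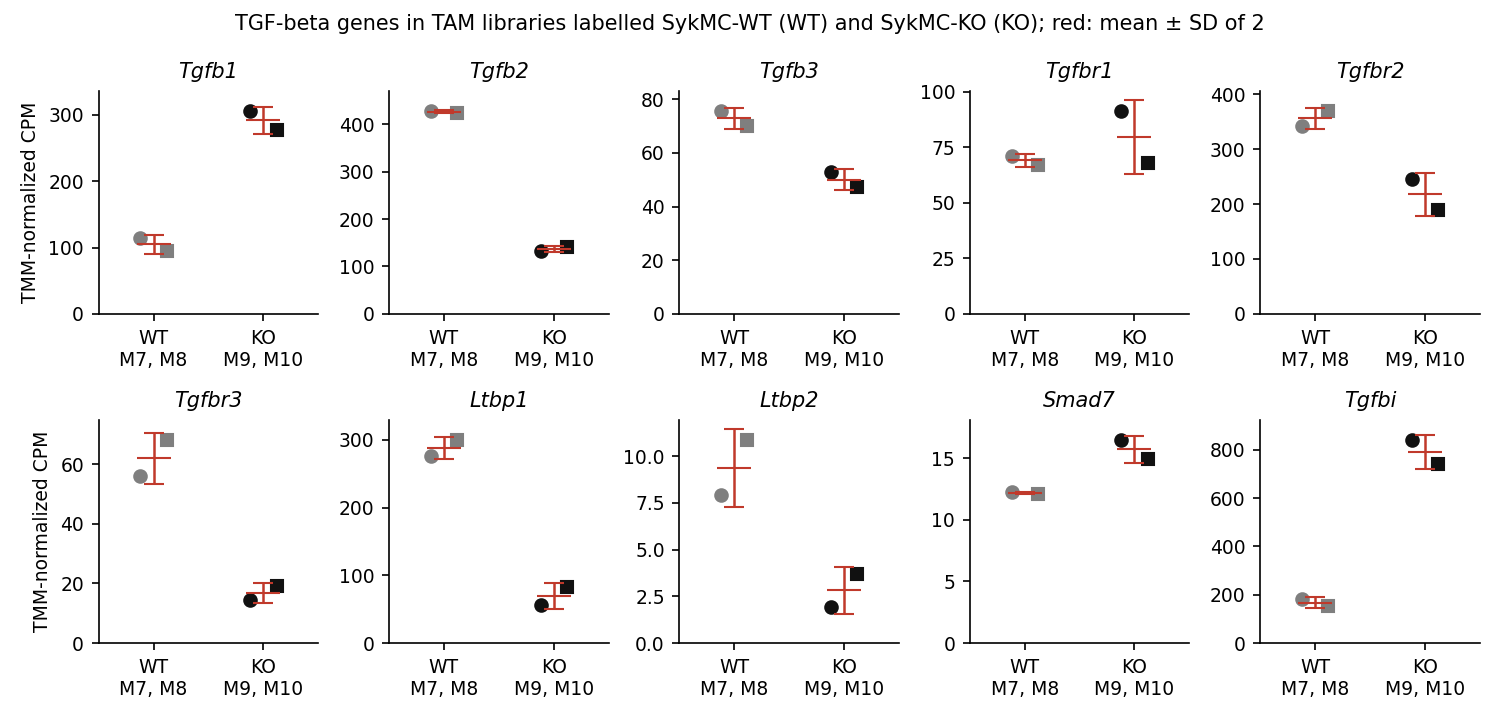
Level of each TGF-beta gene in CPM after TMM (trimmed mean of M-values) scaling, on a linear axis from 0, in libraries labelled SykMC-WT (grey) and SykMC-KO (black), with circles for M7 and M9, squares for M8 and M10, and red bars for the mean ± SD of 2 libraries. *Tgfb1* and *Tgfbi* are higher in M9 and M10, 6 genes are lower, and *Tgfbr1* overlaps between genotypes.

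With TMM scaling the ligands moved in opposite directions. *Tgfb1* (ENSMUSG00000002603, GRCm38 chr7:25687002-25705077, plus strand), the ligand best known in immune cells, was at 115 CPM in M7, 94.97 CPM in M8, 306 CPM in M9 and 277 CPM in M10. Both libraries labelled SykMC-KO lay above both labelled SykMC-WT, with means of 291 ± 20.5 and 105 ± 13.9 CPM (SD, n = 2). The level was 2.78-fold higher, with a log2 fold change of 1.48 (SE 0.179, 95% interval 1.04 to 1.91, edgeR adjusted p = 0.00224). Scaled to the macrophage markers instead, *Tgfb1* was called lower (-1.24, edgeR adjusted p = 0.0262). It was also called lower when scaled to the pan-leukocyte markers (-1.94, edgeR adjusted p = 1.77e-05). *Tgfb2* (ENSMUSG00000039239, GRCm38 chr1:186622792-186705989, minus strand), a ligand known chiefly from stromal and epithelial cells, was at 428 CPM in M7, 423 CPM in M8, 132 CPM in M9 and 142 CPM in M10. The groups were far apart and each pair of libraries was close, with means of 426 ± 3.28 and 137 ± 7.02 CPM. The level was 3.11-fold lower in the libraries labelled SykMC-KO, with a log2 fold change of -1.64 (SE 0.167, edgeR adjusted p = 0.00144). *Tgfb3* (ENSMUSG00000021253, GRCm38 chr12:86056745-86079041, minus strand), a ligand of mesenchymal tissues, was at 75.7 CPM in M7, 70.2 CPM in M8, 52.7 CPM in M9 and 47.3 CPM in M10. Here the groups did not overlap but the difference was smaller, 1.46-fold lower with a log2 fold change of -0.54 (SE 0.154, edgeR adjusted p = 0.0328). Without M7 (-0.49, adjusted p = 0.272) and without M8 (-0.61, adjusted p = 0.194), *Tgfb3* kept about the same log2 fold change but lost its call.

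The promoters of *Tgfb1* and *Tgfb2* are shown because these ligands were called in opposite directions with TMM scaling. That of *Ltbp1* is shown because it had the lowest log2 fold change of the 10 genes. Each sequence holds the 250 bases before the start site in RefSeq (build GRCm38.p6), 5′ to 3′ on the strand of the gene, and 7 of the 10 genes had an entry in the promoter table. Capitals mark GC boxes (GGGCGG) in *Tgfb1*, an E-box (CACGTG) and a TATA box (TATAAA) in *Tgfb2*, and a cAMP response element (TGACGTCA) in *Ltbp1*, each searched on both strands.
*Tgfb1* promoter, chr7:25686752-25687001, plus strand: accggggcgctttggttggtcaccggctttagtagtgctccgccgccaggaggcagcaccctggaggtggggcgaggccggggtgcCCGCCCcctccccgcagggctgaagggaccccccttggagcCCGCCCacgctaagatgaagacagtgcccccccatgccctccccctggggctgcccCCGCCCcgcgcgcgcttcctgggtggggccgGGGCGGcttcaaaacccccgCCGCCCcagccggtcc
*Tgfb2* promoter, chr1:186705990-186706239, minus strand: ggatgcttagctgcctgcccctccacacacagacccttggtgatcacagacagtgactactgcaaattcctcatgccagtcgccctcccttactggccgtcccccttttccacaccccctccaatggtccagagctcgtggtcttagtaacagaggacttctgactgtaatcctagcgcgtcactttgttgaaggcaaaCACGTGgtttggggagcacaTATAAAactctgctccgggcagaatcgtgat
*Ltbp1* promoter, chr17:75005279-75005528, plus strand: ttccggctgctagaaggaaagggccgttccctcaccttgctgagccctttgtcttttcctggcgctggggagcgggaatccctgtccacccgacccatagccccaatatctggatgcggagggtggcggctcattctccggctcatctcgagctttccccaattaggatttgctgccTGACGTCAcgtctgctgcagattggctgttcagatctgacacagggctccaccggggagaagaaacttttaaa

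The *Tgfb1* window was 75.2% G and C and held 5 GC boxes, with no TATA box, where the median of 32851 mouse promoters was 52.4% G and C and 32.7% held a GC box. The *Tgfb2* window was 53.6% G and C and held no GC box. It had a TATA box 31 bases and an E-box 51 bases upstream of the start, which 12.4% and 6.02% of all promoters held. The *Ltbp1* window was 56.8% G and C and had a cAMP response element 73 bases upstream of the start, which 1.55% of all promoters held. RefSeq has a second start for *Ltbp1*, and its window (chr17:75178531-75178780, 50.8% G and C) held none of the motifs searched. A SMAD palindrome (GTCTAGAC, in 0.167% of all promoters), an AP-1 site (TGACTCA, in 4.46%) and a PU.1 site (GAGGAAGT, in 2.44%) were not found in the windows of *Tgfb1*, *Tgfb2*, *Ltbp1*, *Tgfbr1*, *Tgfbr2*, *Ltbp2* and *Tgfbi*. These motifs overlap no other motif searched, they were chosen with the sequences in view, and a match describes the letters and not binding.

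The share of each ligand among ligand transcripts compares genes within a library, so no scaling of the libraries moves it. Counts were divided by the length of the union of exons of each gene for this. *Tgfb1* made up 19.1% of ligand transcripts in M7 and 16.7% in M8, against 61.3% in M9 and 58.8% in M10. *Tgfb2* made up 62.1% and 64.9% in M7 and M8, against 23.0% and 26.2% in M9 and M10. The most abundant ligand was thus *Tgfb2* in both libraries labelled SykMC-WT and *Tgfb1* in both labelled SykMC-KO. *Tgfb3* had 18.8% and 18.4% in M7 and M8 and 15.7% and 15.0% in M9 and M10, a smaller shift without overlap. The ratio of *Tgfb1* to *Tgfb2* was 0.308 (M7) and 0.258 (M8) against 2.66 (M9) and 2.24 (M10), and its mean was 8.68-fold higher in the libraries labelled SykMC-KO. With 2 libraries against 2, an exact two-sided permutation test cannot go below p = 0.33, so these shares are given without a test. In raw counts, *Tgfb1* took 18.5% of 16963 ligand counts in M7 (95% Wilson interval 18.0 to 19.1) and 62.4% of 10104 in M9 (61.4 to 63.3), and these intervals cover counting error only. With the longest transcript as length, the share of *Tgfb1* was 29.6% (M7) and 26.3% (M8) against 74.2% (M9) and 72.1% (M10).

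**Figure D2:**
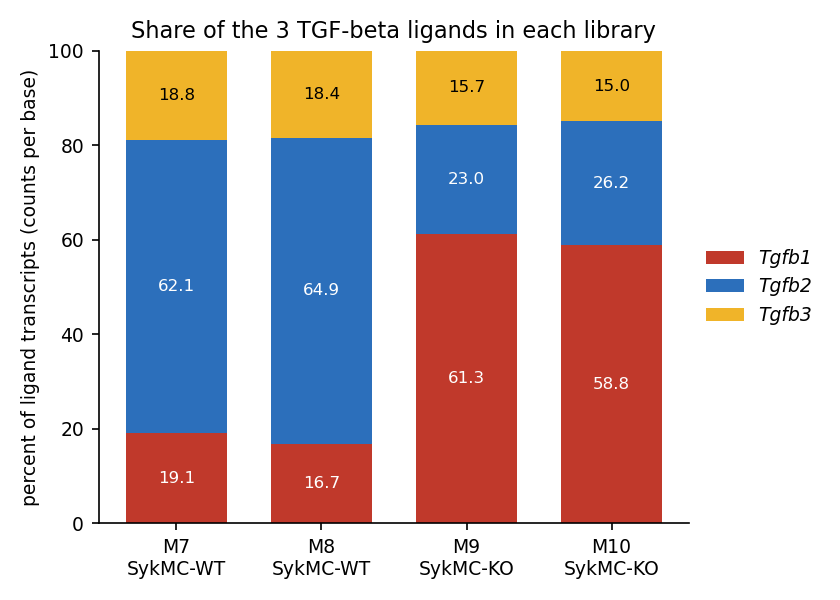
Stacked bars of the percent of length-normalized ligand transcripts (vertical axis, 0 to 100) from *Tgfb1*, *Tgfb2* and *Tgfb3* in each of the 4 libraries. *Tgfb2* is the largest share in M7 and M8 (62.1% and 64.9%) and *Tgfb1* in M9 and M10 (61.3% and 58.8%).

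Among the 3 receptors, the co-receptor *Tgfbr3* had the lowest log2 fold change. *Tgfbr3* (ENSMUSG00000029287, GRCm38 chr5:107106570-107289629, minus strand) was at 55.9 CPM in M7, 68.0 CPM in M8, 14.4 CPM in M9 and 19.3 CPM in M10. The groups did not overlap, and the level was 3.68-fold lower in the libraries labelled SykMC-KO (log2 fold change -1.88, SE 0.213, edgeR adjusted p = 0.00188). *Tgfbr2* (ENSMUSG00000032440, GRCm38 chr9:116084293-116175360, minus strand), the ligand-binding kinase, was at 343 CPM in M7, 370 CPM in M8, 245 CPM in M9 and 190 CPM in M10. It was 1.64-fold lower in the libraries labelled SykMC-KO (log2 fold change -0.71, SE 0.194, edgeR adjusted p = 0.0289), without overlap. Without M7 (-0.77, adjusted p = 0.120) and without M8 (-0.67, adjusted p = 0.200), *Tgfbr2* kept about the same log2 fold change but lost its call. *Tgfbr1* (ENSMUSG00000007613, GRCm38 chr4:47353222-47414931, plus strand), the signalling kinase, was at 71.1 CPM in M7, 67.1 CPM in M8, 91.4 CPM in M9 and 68.0 CPM in M10. Only M9 stood above the others, the groups overlapped, and the log2 fold change of 0.21 had a 95% interval of -0.24 to 0.66 (edgeR adjusted p = 0.413). Without M10 the *Tgfbr1* difference was 0.42 and passed the test (adjusted p = 0.0390), and without M9 it was -0.11.

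The ratio of the signalling to the ligand-binding receptor is also free of the scaling of the libraries. Per exon base, *Tgfbr1* over *Tgfbr2* was 0.260 (M7) and 0.227 (M8) against 0.468 (M9) and 0.449 (M10). *Tgfbr2* transcripts outnumbered those of *Tgfbr1* in every library, and the mean ratio was 1.88-fold higher in the libraries labelled SykMC-KO, without overlap.

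Latent TGF-beta binding proteins tie the latent complex to the matrix, which LTBP1 does by bonding to the propeptide, whereas LTBP2 is a matrix protein of the same family that is not known to bind the latent ligand. *Ltbp1* (ENSMUSG00000001870, GRCm38 chr17:75005568-75392512, plus strand) was at 277 CPM in M7, 300 CPM in M8, 55.8 CPM in M9 and 82.9 CPM in M10. It was 4.16-fold lower in the libraries labelled SykMC-KO, with a log2 fold change of -2.06 (SE 0.230, 95% interval -2.61 to -1.50, edgeR adjusted p = 0.00182). *Ltbp2* (ENSMUSG00000002020, GRCm38 chr12:84783212-84876532, minus strand) was scarce, with 217 counts in M7 and 267 in M8 against 40 (M9) and 68 (M10), or 7.91, 10.9, 1.94 and 3.71 CPM. The groups did not overlap, and the level was 3.32-fold lower (log2 fold change -1.73, SE 0.423, edgeR adjusted p = 0.0205). Without M8 the *Ltbp2* call was lost (log2 fold change -1.50, adjusted p = 0.174). Of the pericyte and smooth muscle markers, 5 of 7 were lower (median log2 fold change -1.41). Of 8 fibroblast markers, 2 were lower, 1 was higher and 5 were not called (median -0.45). The part of either in the *Ltbp1* and *Ltbp2* differences was not tested.

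*Tgfbi* (ENSMUSG00000035493, GRCm38 chr13:56609523-56639562, plus strand) encodes a secreted matrix protein that is induced by TGF-beta and is also abundant in macrophages. It was at 183 CPM in M7, 152 CPM in M8, 840 CPM in M9 and 742 CPM in M10. Both libraries labelled SykMC-KO lay well above the others, with means of 791 ± 69.1 and 167 ± 21.7 CPM (SD, n = 2). The level was 4.73-fold higher (log2 fold change 2.24, SE 0.203, edgeR adjusted p = 0.00107). Scaled to the macrophage markers instead, *Tgfbi* was not called (-0.48, edgeR adjusted p = 0.396). Scaled to the pan-leukocyte markers, it was called lower (-1.18, edgeR adjusted p = 0.00320). *Smad7* (ENSMUSG00000025880), which blocks TGFBR1 and is itself induced by TGF-beta, was at 12.2 CPM in M7, 12.1 CPM in M8, 16.5 CPM in M9 and 14.9 CPM in M10. The libraries did not overlap, but the log2 fold change of 0.37 (SE 0.212, 95% interval -0.14 to 0.88) did not pass the test (edgeR adjusted p = 0.208).

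The direction of *Tgfb1*, *Tgfbi*, *Tgfbr1* and *Smad7* depended on the scaling, while the other 6 genes had a log2 fold change below 0 under every scaling. When libraries were scaled to 10 macrophage markers, the log2 fold change of *Tgfb1* was -1.24, that of *Tgfbi* -0.48, that of *Tgfbr1* -2.56 and that of *Smad7* -2.37. On the scale of the 6 pan-leukocyte markers, these values were -1.94, -1.18, -3.24 and -3.06, and all 10 genes were called lower, where 91.8% of all genes tested were. On the macrophage scale 9 of the 10 were called lower, where 86.3% of all genes were. With library size only, *Tgfb1* (0.94) and *Tgfbi* (1.71) stayed higher, while *Tgfbr1* was at -0.32 and *Smad7* at -0.16. *Tgfb2*, *Tgfbr3* and *Ltbp1* were called lower in all 13 alternative fits. On the main scale each of the 10 genes had a lower log2 fold change than the median macrophage marker, with a difference of -0.58 for *Tgfbi*, -1.34 for *Tgfb1* and -4.87 for *Ltbp1*. Markers of other blood cells were also read beside *Tgfb1*, and their part in its difference was not tested. Dendritic cell markers had a median log2 fold change of 3.65 with 4 of 6 called higher. Their summed levels were 13.9, 12.2, 67.4 and 60.8 CPM in M7, M8, M9 and M10. T cell markers had a median of 3.02 with 4 of 6 called higher, but were scarce, with summed levels of 5.80, 4.92, 10.8 and 13.2 CPM. *Cd3d* had 3, 1, 14 and 11 counts, and *Lck* (4.89, 3.82, 4.08 and 5.72 CPM) and *Cd8a* were not called. Platelets store TGF-beta1. Of 3 platelet markers tested, *Ppbp* was higher (3.06, 2.36, 119 and 54.9 CPM in M7, M8, M9 and M10) and *Itga2b* was lower (6.42, 6.47, 2.72 and 3.05 CPM). All 5 neutrophil markers tested were higher, with summed levels of 28.6, 40.3, 444 and 217 CPM over the 6 listed, while *Ly6g* was at or under 0.243 CPM in every library.

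**Figure D3:**
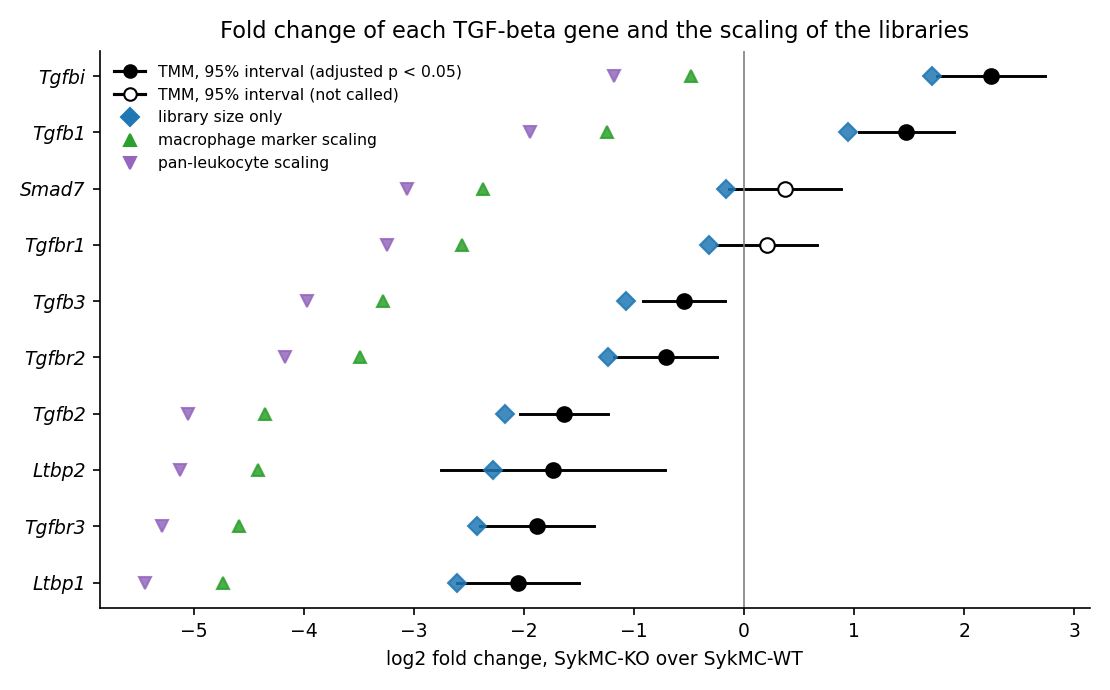
Log2 fold change of each TGF-beta gene, libraries labelled SykMC-KO over SykMC-WT, with the 95% interval after TMM scaling (circles, filled where the adjusted p was under 0.05) and the value under 3 other scalings (diamonds and triangles). *Tgfb1* and *Tgfbi* lie above 0 with TMM (1.48 and 2.24) and below it under both marker scalings, and *Tgfb2*, *Tgfbr3* and *Ltbp1* lie below 0 under every scaling drawn.

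Levels can be compared between genes only per length, and here counts per exon base were scaled to the same total in each library, the scale of TPM values. On this scale *Tgfb2* had the highest level of the 10 genes in the libraries labelled SykMC-WT, at 288 ± 9.98 (SD, n = 2). *Tgfbi* (174 ± 27.3) and *Tgfbr2* (170 ± 4.58) came next and overlapped, followed by *Ltbp1* at 106 ± 3.13. *Tgfb3* (84.6 ± 6.81) overlapped with *Tgfb1* (81.7 ± 13.0), and *Tgfbr1* (41.5 ± 2.79) with *Tgfbr3* (37.1 ± 4.15). The order of the 10 genes is that for the union of exons. For *Ltbp1* this union is 10691 bases and the longest transcript 6671, and for *Tgfbr2* 8187 and 8092. The place of *Ltbp1* below *Tgfbr2* thus also depends on the length used. The overlap of *Tgfb3* with *Tgfb1* depended on the length used. With the longest transcript, *Tgfb1* had 29.6% (M7) and 26.3% (M8) of ligand transcripts against 14.9% and 14.8% for *Tgfb3*. *Smad7* at 10.5 ± 0.362 and *Ltbp2* at 4.49 ± 0.880 were lowest. In the libraries labelled SykMC-KO, *Tgfbi* was highest at 407 ± 116, followed by *Tgfb1* at 112 ± 30.1. *Tgfbr2* (52.1 ± 19.4) and *Tgfb2* (45.3 ± 6.76) overlapped, as did *Tgfb3* (28.7 ± 7.87) and *Tgfbr1* (24.0 ± 9.58). Within each library *Tgfb3* was above *Tgfbr1*, at 34.3 against 30.8 in M9 and 23.1 against 17.2 in M10. *Ltbp1* (12.2 ± 0.956), *Smad7* (6.73 ± 1.80), *Tgfbr3* (4.85 ± 0.0344) and *Ltbp2* (0.635 ± 0.161) stood apart from each other in that order. This scale has no TMM factor, and on it *Tgfb1* overlapped between genotypes, at 90.9 (M7) and 72.5 (M8) against 133 (M9) and 90.9 (M10). *Tgfbr1* was at 43.5 and 39.5 in M7 and M8 against 30.8 and 17.2 in M9 and M10. *Smad7* was at 10.8 and 10.3 against 8.0 and 5.46, so that both were lower without overlap. The share of all genes that were lower without overlap on this scale was not counted. A shift of whole libraries can therefore not be told apart from a difference in these genes.

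Other genes are known to hold or release latent TGF-beta. Of 18 listed, 17 were tested, of which 4 were higher, 8 were lower and 5 were not called in the libraries labelled SykMC-KO, with a median log2 fold change of -0.59. Over all genes tested, 22.7% were higher and 16.7% lower. *Nrros*, which holds latent TGF-beta1 on myeloid cells, was at 21.5 CPM in M7, 15.0 CPM in M8, 167 CPM in M9 and 118 CPM in M10 (log2 fold change 2.96, edgeR adjusted p = 0.00101). On the macrophage marker scale its log2 fold change was 0.22 (adjusted p = 0.682). *Lrrc32* (GARP), which does so on platelets, regulatory T cells and endothelium, was at 13.5, 20.6, 6.46 and 7.90 CPM and was lower (log2 fold change -1.25, edgeR adjusted p = 0.0186), a call that was lost without M8 (-0.92). Of 8 endothelial markers, 3 were lower and none was higher (median log2 fold change -0.56), and their part in the *Lrrc32* difference was not tested. The ratio of *Nrros* to *Lrrc32* per exon base was 1.78 (M7) and 0.818 (M8) against 29.0 (M9) and 16.7 (M10). It was thus 17.6-fold higher in the mean of the libraries labelled SykMC-KO, and no scaling of the libraries enters it. Without M7 this fold was 27.9, and it was 12.8 to 22.3 without each of the others.

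Of the matrix proteins in this list, *Ltbp3*, *Ltbp4*, *Fbn1* and *Emilin1* were lower and *Fbn2* was not called. *Ltbp3* had a log2 fold change of -1.27 (edgeR adjusted p = 0.00780), and *Fbn1*, the microfibril protein to which LTBPs attach, fell from 41.2 and 37.1 CPM in M7 and M8 to 2.38 and 7.25 CPM in M9 and M10 (-3.03, adjusted p = 0.00492). Without M10 the *Fbn1* value was -4.03. *Ltbp1* to *Ltbp4* summed per exon base, over the summed ligands, gave 0.674 (M7) and 0.830 (M8) against 0.277 (M9) and 0.416 (M10), without overlap. Among enzymes and activators, *Furin*, which cleaves the propeptide, was higher (log2 fold change 1.28, adjusted p = 0.00513), as were the protease *Mmp9* (0.83, adjusted p = 0.0255) and the activator *Thbs1* (1.12, adjusted p = 0.0415). Of the 5 integrin subunits tested, which form receptors that release the active ligand, *Itgav* (-0.79, adjusted p = 0.0284) and *Itgb5* (-0.71, adjusted p = 0.0200) were lower, and *Itgb1*, *Itgb3* and *Itgb8* were not called. *Mmp2*, a protease of stromal cells, was lower (-1.84, adjusted p = 0.00271). *Thbs1* ranged from 761 and 936 CPM in M7 and M8 to 2408 and 1281 CPM in M9 and M10, and its call was lost without M7 (0.98), without M8 (1.27) and without M9 (0.51). *Mmp9* lost its call without M8 (0.63). With library size only, *Thbs1* (0.61, adjusted p = 0.230) and *Mmp9* (0.30, adjusted p = 0.375) were not called, and with DESeq2 size factors *Thbs1* was not (adjusted p = 0.0542). On the macrophage marker scale *Furin* (-1.48), *Thbs1* (-1.74) and *Mmp9* (-1.91) were called lower.

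SMAD proteins, co-receptors and feedback inhibitors carry or restrain the signal behind the receptors. Of 14 transducers and inhibitors, 2 were higher, 2 were lower and 10 were not called in the libraries labelled SykMC-KO, where 22.7% of all genes were higher and 16.7% lower, and the median log2 fold change was -0.03. *Acvrl1* (ALK1), a type I receptor for BMP9 that TGF-beta can also engage, was at 23.4 CPM in M7, 25.1 CPM in M8, 98.1 CPM in M9 and 78.0 CPM in M10 (1.86, edgeR adjusted p = 0.00126). *Pmepa1*, a TGF-beta-induced inhibitor, was at 5.58 and 5.82 CPM against 36.5 and 15.5 CPM (2.19, adjusted p = 0.00925), and without M9 its log2 fold change was 1.35. On the macrophage marker scale *Acvrl1* was at -0.91 and *Pmepa1* at -0.68, neither of them called. *Smad4*, the shared partner of the receptor SMADs, was lower (-0.58, adjusted p = 0.0271), and so was *Smurf2*, a ubiquitin ligase that SMAD7 brings to the receptor (-0.69, adjusted p = 0.0201). The calls on *Smad4* and *Smurf2* were lost without M7 (-0.55 and -0.71) and without M8 (-0.61 and -0.69).

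Of 11 genes often read as TGF-beta targets, 10 were lower and 1 was not called in the libraries labelled SykMC-KO, where 16.7% of all genes were lower, and the median log2 fold change was -1.66. *Col5a1*, a fibrillar collagen, fell from 3070 and 2785 CPM in M7 and M8 to 551 and 713 CPM in M9 and M10 (-2.21, edgeR adjusted p = 0.00202). *Tagln* (-2.13, adjusted p = 0.000729), an actin-binding protein of smooth muscle, was also lower, as were the matrix protein *Postn* (-2.11, adjusted p = 0.00448) and the matricellular protein *Ccn2* (-1.71, adjusted p = 0.00509). Most of these genes are expressed by fibroblasts and smooth muscle, and macrophages express few of them. The pericyte and smooth muscle markers had a median log2 fold change of -1.41. Of 8 fibroblast markers, 2 were lower, 1 was higher and 5 were not called, with a median of -0.45. The summed fibroblast levels were 552, 659, 239 and 318 CPM in M7, M8, M9 and M10. The part of either marker list in the target counts was not tested.

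**Figure D4:**
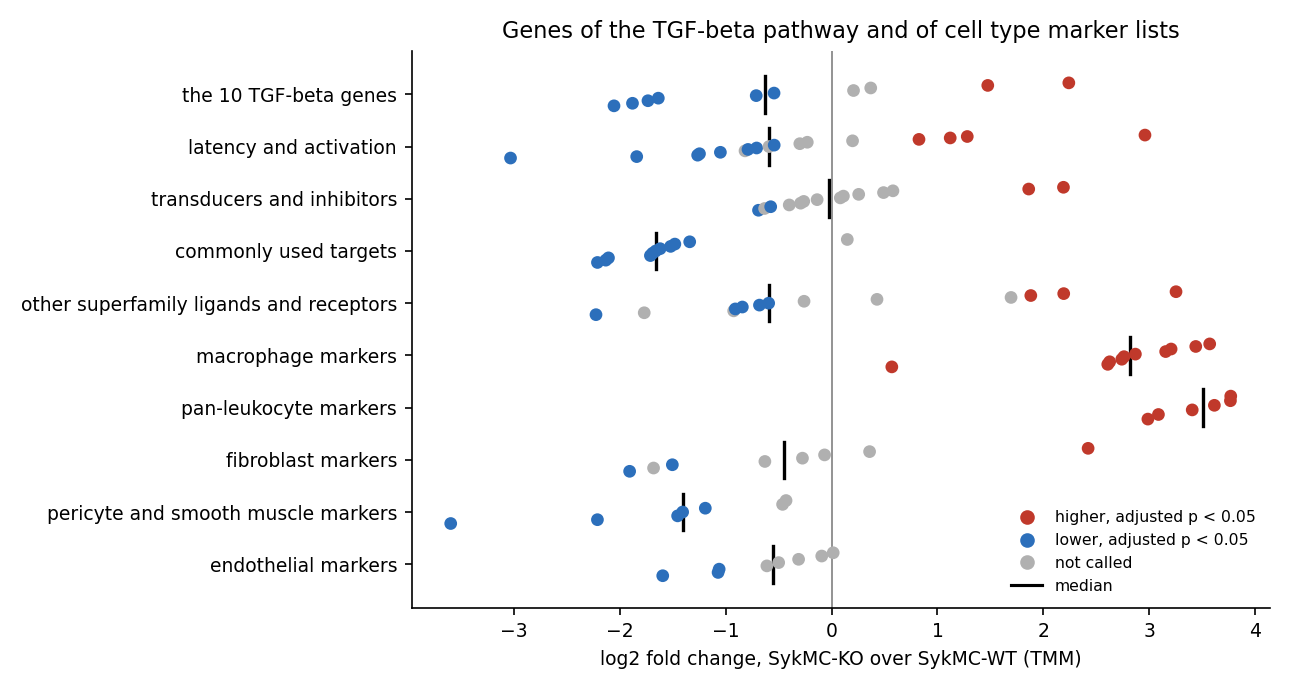
Log2 fold change after TMM scaling (horizontal axis) of each tested gene of the 10 TGF-beta genes, of 4 lists of the pathway and of 5 marker lists, colored red where called higher, blue where called lower and grey where not called, with the median of each list as a black bar. The medians are -1.66 for the commonly used targets, -0.03 for transducers and inhibitors, and 2.82 for macrophage markers.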

How the data were processed

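Whole-number read counts per Ensembl gene, not normalized, were deposited by the authors for 4 TAM libraries. The submitters' processing notes name STAR 2.6.1d, Salmon 1.4.0, SAMtools 1.9, Picard 2.26, MultiQC 1.11 and mm10. How whole counts were made from Salmon's estimates is not given in the sources used here. The study's methods describe single reads in triplicate, the labels paired reads and 2 libraries per genotype.

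Symbols, positions and exon lengths came from GENCODE M21 (GRCm38), which matched 54495 of 54532 genes, and promoters from RefSeq. Genes passing filterByExpr were tested in R 4.3.3 with edgeR 4.0.16 (TMM factors 1.22, 1.19, 0.876 and 0.787, glmQLFit, glmQLFTest) at a Benjamini-Hochberg adjusted p of 0.05 over 16451 genes. Exons of *Tgfb2*, *Tgfb3*, *Tgfbr3* and *Ltbp2* overlap other genes of at most 9 counts per library. The 10 genes and the lists were chosen with earlier results of these data known. All 10 genes were described, and from each pathway list up to 4 called genes per direction with the largest change and an average of at least 1 CPM were named. *Ltbp4*, *Fbn2*, *Emilin1*, the integrins, *Acvr1b*, *Acvr2b*, *Bmpr1b*, *Bmpr2*, *Ppbp*, *Itga2b* and *Ly6g* were added after their values were seen. One gene of the target list is not reported here and is left out of its counts. Alternatives were other scalings, filters, thresholds, DESeq2 1.42.0 and each library left out.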

Additional observations from a re-analysis of the deposited data

How the results depend on the processing

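*Tgfb2*, *Tgfbr3* and *Ltbp1* kept their direction and call in all 13 alternative fits. The median log2 fold change of all genes was 0.02 with TMM, -0.52 with library size only, -2.70 with macrophage marker scaling and -3.40 with pan-leukocyte scaling, so values under the other scalings are shifted by about as much. Under these 3 scalings, 1677, 136 and 70 genes were called higher and 5411, 14200 and 15098 lower, against 3729 and 2747 with TMM. Of the 10 TGF-beta genes, 0 were higher under either marker scaling, and 9 and 10 were lower. Of the pathway lists, 9 genes were higher and 25 lower with TMM, 0 were higher under either marker scaling, and 48 and 51 were lower. When a log2 change of 1 or more in either direction was also required, 2426 genes were called higher and 16 pathway genes lower. Leaving out each library in turn gave 1478 to 5010 genes higher and 807 to 4745 lower, with both lowest counts without M8 and both highest without M10. It gave 2 to 3 of the TGF-beta genes higher and 3 to 6 lower, and 6 to 12 pathway genes higher and 14 to 31 lower. Why these counts differ was not tested.

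Under macrophage and pan-leukocyte scaling, the log2 fold change turned to -1.24 and -1.94 for *Tgfb1*, -2.56 and -3.24 for *Tgfbr1*, -2.37 and -3.06 for *Smad7*, and -0.48 and -1.18 for *Tgfbi*. *Tgfbr1* (-0.32) and *Smad7* (-0.16) also turned with library size only, and *Tgfbr1* ranged from -0.11 to 0.42 over the libraries left out. *Syk* was at 0.07 and -0.63 under the marker scalings. Fits for the named pathway genes were added after seeing the data. Under macrophage and pan-leukocyte scaling they turned to -1.48 and -2.17 for *Furin*, -1.74 and -2.39 for *Thbs1*, -1.91 and -2.60 for *Mmp9*, -0.68 and -1.33 for *Pmepa1*, -0.91 and -1.59 for *Acvrl1*, -0.65 and -1.31 for *Inhba*, and -0.85 and -1.54 for *Bmp2*. *Nrros* (-0.47) and *Gdf15* (-0.23) turned under pan-leukocyte scaling only, and were at 0.22 and 0.43 without a call under macrophage scaling. The cause was not tested. Depth limits *Ltbp2*, with 40 counts in M9, and *Bmp2*, with 23 in M8. No paired analysis was possible because the libraries of the genotypes share no replicate number.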

Other observations

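Other ligands and receptors of the TGF-beta superfamily were read from the same fit. Of 17 listed, 13 were tested, of which 3 were higher, 5 were lower and 5 were not called in the libraries labelled SykMC-KO, with a median log2 fold change of -0.59, where 22.7% of all genes were higher and 16.7% lower. The 3 that were higher are ligands. *Gdf15*, a stress-induced cytokine, was at 4.37 CPM in M7, 3.17 CPM in M8, 50.8 CPM in M9 and 21.3 CPM in M10 (log2 fold change 3.25, edgeR adjusted p = 0.00345), and on the macrophage marker scale its log2 fold change was 0.43 (adjusted p = 0.497). *Inhba*, which encodes the subunit of activin A, was at 7.62, 6.84, 45.6 and 20.5 CPM (2.19, adjusted p = 0.00731). *Bmp2* was scarce, at 1.13, 0.936, 4.32 and 3.32 CPM (1.88, adjusted p = 0.0229), and its call was lost without M7 (2.02), without M8 (1.74) and with library size only (1.36, adjusted p = 0.0631). Without M9 the log2 fold change was 2.41 for *Gdf15* and 1.41 for *Inhba*. On the macrophage marker scale *Inhba* was at -0.65 and *Bmp2* at -0.85, neither of them called. In all 3 ligands M9 was the highest library and M10 the next.

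No receptor of this list was called higher. *Acvr1b* (0.43, edgeR adjusted p = 0.106) and *Acvr2b* (1.69, adjusted p = 0.150) were above 0 but not called, and *Bmpr1b* was not tested. *Bmpr2* was called lower (-0.59, adjusted p = 0.0305). *Acvr1* (-0.91, adjusted p = 0.00768), *Bmpr1a* (-0.84, adjusted p = 0.0109) and *Acvr2a* (-0.68, adjusted p = 0.0305) were lower in the libraries labelled SykMC-KO, and each of these calls was lost without M7 and without M8. The log2 fold changes stayed about as large, at -0.92 and -0.91 for *Acvr1*, -0.83 and -0.87 for *Bmpr1a*, and -0.68 and -0.70 for *Acvr2a*. *Bmp1*, a protease that matures procollagen and cleaves LTBP1, fell from 346 and 378 CPM in M7 and M8 to 73.2 and 81.6 CPM in M9 and M10 (-2.23, adjusted p = 0.000780). No call on *Bmp1* was lost in any alternative fit.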
